A study of Rattus norvegicus with 10 samples.

Results

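The 10 genes described here belong to glucose uptake and glycolysis and were followed in rat heart at 24 months (Old) against 6 months (Young): the glucose transporter genes Slc2a1 and Slc2a4, the hexokinase genes Hk1 and Hk2, the isomerase gene Gpi, the phosphofructokinase genes Pfkm, Pfkp and Pfkl, and the lactate dehydrogenase genes Ldha and Ldhb. They were taken by name, as all probe sets whose only gene symbol in the platform annotation was one of these, which gave 14 probe sets of 31042 and 10 genes of 14217. The hearts came from male Fischer-344 rats, an inbred strain, on standard chow. There were 5 Old arrays, with replicate numbers 2 to 6, and 5 Young arrays, with numbers 1, 2, 3, 4 and 6. The labels name the whole heart in the sample protocols and the ventricles in the series text, and do not tie every array to its own animal. The p-values therefore reflect the scatter of these 10 arrays, part of which may be technical.

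Heart muscle takes up glucose through GLUT1, the basal transporter encoded by Slc2a1, and GLUT4, the transporter encoded by Slc2a4 that insulin and contraction move to the cell surface. Hexokinase traps the sugar in the cell, phosphoglucose isomerase rearranges it, and phosphofructokinase commits it to breakdown. The lower steps yield pyruvate, which lactate dehydrogenase interconverts with lactate. The adult heart burns mainly fatty acids, and its muscle cells use the GLUT4, HK2 and PFKM isoforms as their muscle types.

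Each deposited value is a difference from the probe set's own median over the 10 arrays, used as log2, so values show differences between arrays and no level. The labels do not state the log base, which was read from the rounding of the numbers. The same rounding was used to guess a brightness class before centring. By it, all 11 measured cardiomyocyte marker genes reached the brightest class (a log2 value of 8 or more), against 19.4% of all genes, and 0 of the 14 probe sets described here were in the dimmest (under 4). Classes of single probe sets are uncertain. Array medians lay between -0.0097 and 0.0038 in Old and between -0.0061 and 0.0093 in Young. Several marker scores, the mean over a list of each value minus that gene's mean, moved with age. Scores of 11 macrophage markers ran from -0.09 to 0.95 in Old and from -0.50 to -0.10 in Young, and those of 10 fibroblast markers from 0.04 to 0.52 in Old and from -0.48 to -0.06 in Young, with 5 of the 11 and 6 of the 10 genes raised by the test described next. Scores of the 11 cardiomyocyte markers ran from -0.18 to 0.07 in Old and from 0.02 to 0.22 in Young, and those of 4 atrial markers from 0.19 to 0.86 in Old and from -1.02 to -0.26 in Young (3 of 11 fell and 1 rose, and 2 of 4 rose). Changes of the cardiomyocyte markers ran from -1.24 for Myh6 to 0.76 for Myh7, with a median of -0.11 and 9 means lower in Old. Old replicates 3 and 6 had the highest scores of 11 lymphocyte markers (0.64 and 0.40, against -0.36 to 0.06 on the other arrays). Of these 11, 1 rose, 10 did not pass and 5 had a lower mean in Old. The 2 scores came mostly from Gzma, Prf1 and Nkg7, singled out after their values were seen (3.38, 2.55 and 1.87 on Old replicate 3). On that array Cd8a was also high (0.85), Cd2 read 0.29 and Ms4a1 0.04, whereas Cd3d, Cd3e, Cd3g, Cd4 and Cd79b were below 0. Young replicate 2 had an adipocyte score of 1.09 over 5 markers, against -0.24 to 0.02 elsewhere. The part of cell makeup in the results that follow was not tested, and in such bulk samples fewer cells of a type and less RNA per cell cannot be told apart.

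Transcripts of the muscle-type phosphofructokinase gene and of the phosphoglucose isomerase gene were lower in Old hearts, and the remaining 8 genes did not pass the test. By limma across all genes, with Benjamini-Hochberg adjustment and a threshold of 0.05, Pfkm and Gpi fell and 0 of the 10 genes rose. The share called, 2 of 10, stands beside 11.9% of all genes called, of which 5.09% were lower and 6.77% higher in Old. At an unadjusted limma p under 0.05 there were 5 of 10. Many other genes also lay under this cut. Pfkp, which had the largest p of these 5 (0.0383), ranked 3370 by p among all 14217 genes. At least 3370 of the 14217 genes thus had an unadjusted p under 0.05. The mean was lower in Old for 7 of 10 genes, with a median change of -0.06 log2, against -0.0050 for all genes. Pfkm was the only one of the 10 whose Old and Young values did not overlap, where 9.91% of all genes did not overlap. Among the 14 probe sets, 4 fell, namely 2 of Pfkm, 1 of Gpi and 1 of Slc2a4, beside 8.03% of all probe sets called. The count of genes was 1 without Old replicate 3 or 5 or Young replicate 2, 3 or 4, and 3 without Old replicate 2 or 6, each time with Pfkm among them. Of the 10 genes, 5 had their lowest value on Old replicate 3.

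**Figure D1:**
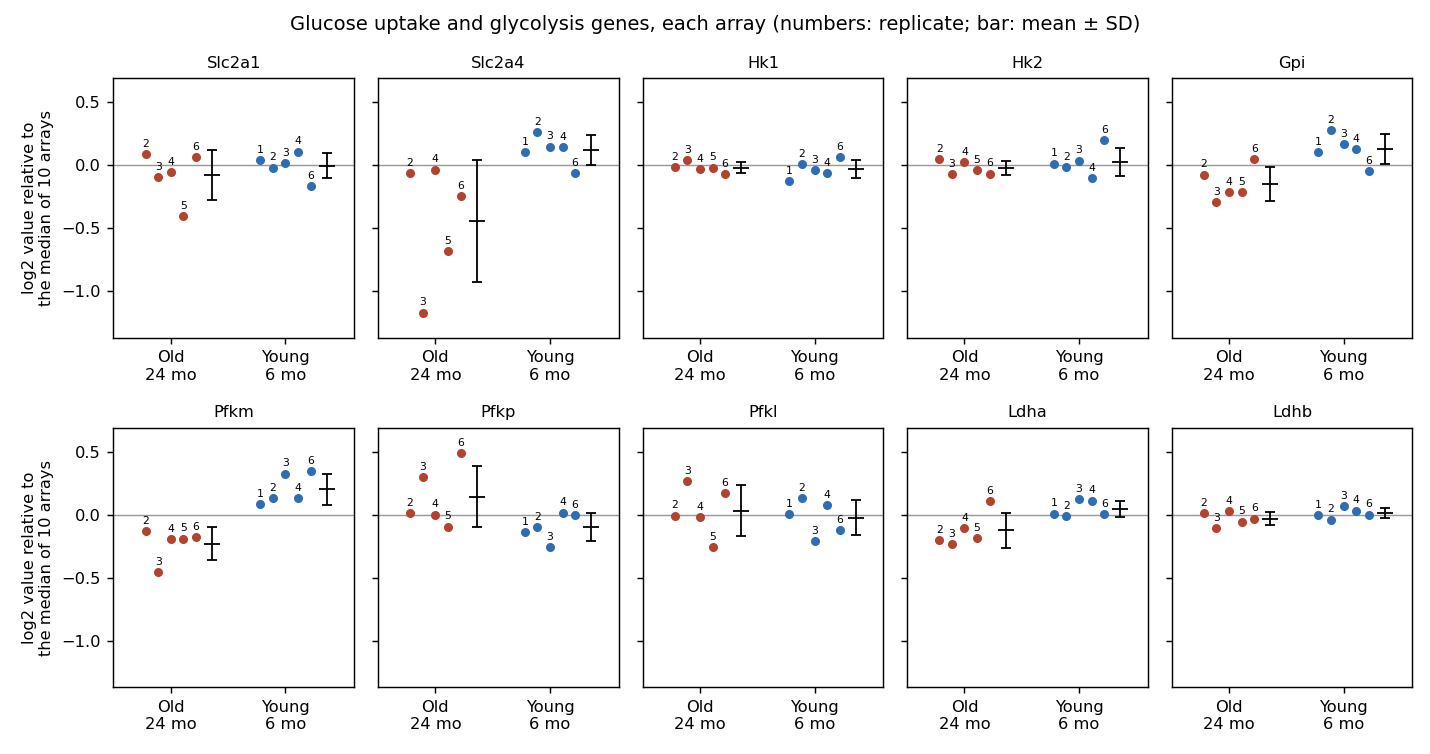
Values of the 10 genes on each array, as log2 relative to the median of the 10 arrays (vertical axis), with Old on the left and Young on the right of each panel. Numbers beside points are replicate numbers and bars are mean ± SD (n = 5). The points of Pfkm separate by age, and Slc2a4 spreads widely in Old, down to -1.17 on replicate 3.

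Of the transporters, Slc2a4 had the largest difference of the 10 genes and also the largest spread. As the mean of its 2 probe sets, Slc2a4 read -0.06, -1.17, -0.03, -0.68 and -0.25 log2 on Old replicates 2, 3, 4, 5 and 6, and 0.11, 0.26, 0.15, 0.14 and -0.06 on Young replicates 1, 2, 3, 4 and 6. Old replicates 3 and 5 were far below all Young arrays, whereas Old replicates 2 and 4 lay near Young replicate 6, so the ages overlapped. The Old mean was -0.44 ± 0.48 and the Young mean 0.12 ± 0.12 (SD, n = 5 each). The difference, -0.56 ± 0.18 SE, or -32.1% with a 95% interval of -48.5% to -10.6%, did not pass (limma adjusted p = 0.0674). It passed without Old replicate 2 (0.0363) or 4 (0.0398). Without Old replicate 3 the difference was -0.38 (0.0616), and without Young replicate 2, the array with the high adipocyte score, it was -0.52 (0.142).

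The 2 probe sets of Slc2a4 gave different sizes. Probe set 1367989_at read -0.12, -1.64, -0.10, -0.84 and -0.37 on the Old arrays and 0.15, 0.40, 0.23, 0.28 and 0.10 on the Young arrays, in the same order of replicates. Here every Old array was below every Young array, which held for 7.32% of all probe sets on either side. Its Old mean was -0.61 ± 0.64 and its Young mean 0.23 ± 0.12 (SD, n = 5 each), a level 0.556 times that of Young (-0.85 ± 0.23 SE, limma adjusted p = 0.0407). That call was lost without Old replicate 5 (0.103) or 6 (0.0559) or without any 1 Young array (0.0651 to 0.0979), and with all 10 arrays under limma's robust variance estimate (0.0790). Probe set 1388958_a_at read -0.01, -0.70, 0.04, -0.53 and -0.12 in Old and 0.06, 0.13, 0.06, 0.01 and -0.23 in Young. The same Old replicates 3 and 5 were lowest, but the others overlapped with Young (-0.27 ± 0.13 SE, adjusted p = 0.258).

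Slc2a1 showed no such spread. It read 0.09, -0.09, -0.05, -0.40 and 0.07 on the Old arrays and 0.04, -0.02, 0.02, 0.11 and -0.16 on the Young arrays. Old replicate 5 was the lowest of the 10 arrays and the remaining values of both ages overlapped. The difference was -0.08 ± 0.09 SE (limma adjusted p = 0.641), with a 95% interval of -0.27 to 0.11, and 0.01 without Old replicate 5.

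The 2 transporters were then compared within each array, as Slc2a4 minus Slc2a1. This and the isoform pairs below made 6 pairs, tested by a two-sided exact permutation test over all arrangements of the arrays into 5 and 5, with p-values adjusted over the 6; the smallest p this design allows is 0.00794. The difference Slc2a4 minus Slc2a1 was -0.15, -1.08, 0.02, -0.28 and -0.31 on the Old arrays and 0.06, 0.28, 0.13, 0.04 and 0.10 on the Young arrays. Every Old value was below every Young value, with Old replicate 4 nearest to the Young range. The pair shifted by -0.48 log2, a ratio 0.715 times that of Young (95% interval of the shift -0.90 to -0.13, exact p = 0.00794, adjusted p = 0.0238). As the mean of its 2 probe sets, Slc2a4 thus changed relative to Slc2a1. The pair was not tested with probe set 1388958_a_at alone, whose own change was -0.27 (limma adjusted p = 0.258), against -0.08 for Slc2a1. The shift was -0.30 without Old replicate 3 (adjusted p = 0.0238) and -0.26 without Old replicates 3 and 6 (0.0357).

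The hexokinase genes, whose products sit partly on mitochondria, differed little between the ages. Hk1, the broadly expressed form, read -0.01, 0.04, -0.03, -0.02 and -0.07 on the Old arrays and -0.12, 0.01, -0.04, -0.06 and 0.06 on the Young arrays. The Old values lay inside the Young range. The difference was 0.01 ± 0.05 SE, with a 95% interval of -0.09 to 0.11 (limma adjusted p = 0.909), and its sign turned without Old replicate 3 or Young replicate 1. Its probe sets 1386929_at and 1398725_at gave 0.06 and -0.03, neither past the test (adjusted p = 0.640 and 0.798). Hk2, the insulin-regulated muscle form, read 0.05, -0.07, 0.03, -0.04 and -0.07 in Old and 0.01, -0.01, 0.04, -0.10 and 0.20 in Young. Here too the Old values lay inside the Young range (-0.05 ± 0.06 SE, 95% interval -0.17 to 0.08, adjusted p = 0.663). The difference Hk2 minus Hk1 shifted by -0.06, with a 95% interval of -0.17 to 0.06 (exact permutation p = 0.286, adjusted p = 0.286). With this number of arrays the 95% intervals reach from -11.2% to 5.56% for Hk2 and from -6.08% to 8.27% for Hk1.

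Gpi encodes phosphoglucose isomerase, which converts the product of hexokinase into the substrate of phosphofructokinase. It read -0.07, -0.29, -0.22, -0.21 and 0.05 on the Old arrays and 0.10, 0.28, 0.17, 0.13 and -0.05 on the Young arrays. Old replicates 2 to 5 were below all Young arrays, and Old replicate 6 and Young replicate 6 crossed. Gpi had an Old mean of -0.15 ± 0.13 and a Young mean of 0.13 ± 0.12 (SD, n = 5 each). The change was -17.4% (-0.28 ± 0.07 SE, limma adjusted p = 0.0313). The call was lost without Old replicate 3, 4 or 5 or Young replicate 2, 3 or 4 (adjusted p = 0.0573 to 0.0791).

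Phosphofructokinase is a tetramer built from muscle (Pfkm), platelet (Pfkp) and liver (Pfkl) type subunits, and only the muscle type gene changed with age by the test, as described after the sequences. To show how the genes differ upstream, the sequence from 250 bases before to 50 after the start of each is given from the RefSeq promoter table (build GRCr8), 5′ to 3′ on the gene's strand, plus in each case. Capitals mark matches on either strand to ACGTG, the core of the hypoxia response element, or to the GC box GGGCGG.
Pfkm, chr7:131113849-131114148: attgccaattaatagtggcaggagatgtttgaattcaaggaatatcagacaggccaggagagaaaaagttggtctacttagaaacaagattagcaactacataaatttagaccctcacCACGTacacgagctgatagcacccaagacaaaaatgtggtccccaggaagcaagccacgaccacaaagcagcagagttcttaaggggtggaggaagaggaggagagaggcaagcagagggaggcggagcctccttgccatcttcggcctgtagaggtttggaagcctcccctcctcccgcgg
Pfkp, chr17:68639563-68639862: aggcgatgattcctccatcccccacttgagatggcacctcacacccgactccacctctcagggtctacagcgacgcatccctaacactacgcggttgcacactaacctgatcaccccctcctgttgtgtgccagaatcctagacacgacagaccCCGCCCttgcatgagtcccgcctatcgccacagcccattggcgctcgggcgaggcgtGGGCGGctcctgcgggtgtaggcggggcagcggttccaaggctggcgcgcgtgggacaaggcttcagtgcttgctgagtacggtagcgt
Pfkl, chr20:10663715-10664014: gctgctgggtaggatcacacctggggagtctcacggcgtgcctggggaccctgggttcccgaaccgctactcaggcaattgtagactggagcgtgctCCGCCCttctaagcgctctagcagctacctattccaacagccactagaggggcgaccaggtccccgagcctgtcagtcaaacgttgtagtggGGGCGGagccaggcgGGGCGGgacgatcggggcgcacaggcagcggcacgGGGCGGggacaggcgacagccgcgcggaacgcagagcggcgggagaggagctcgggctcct
The Pfkm window had 50.3% G and C, with 7 CG dinucleotides and 0 GC boxes. The Pfkp window had 63.0% and 23, with 2 GC boxes, and the Pfkl window 67.7% and 27, with 4. The median G and C content of all 33469 windows was 51.7%. Of the 9 genes with a window in the table, which does not include Slc2a4, 7 held a GC box, as did 33.1% of all windows, and 5 (Gpi, Hk1, Ldha, Pfkm and Slc2a1) held ACGTG, as did 19.3%. The E-box CACGTG, which contains ACGTG, was found in Ldha alone (6.42% of all windows). The muscle E-box CAGCTG was found in Gpi and Hk2 (15.1%). The estrogen-related receptor element AAGGTCA (4.61%) and the MEF2 motif (3.29%) were found in 0 of the 9. Hk1 has 2 windows in the table and was counted once.

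Pfkm fell. As the mean of 3 probe sets it read -0.13, -0.46, -0.19, -0.19 and -0.18 on the Old arrays and 0.08, 0.13, 0.33, 0.13 and 0.35 on the Young arrays. All Old values were below all Young values, and Old replicate 3 was the lowest. The Old mean was -0.23 ± 0.13 and the Young mean 0.20 ± 0.12 (SD, n = 5 each), a change of -25.9% with a 95% interval of -33.7% to -17.2% (-0.43 ± 0.07 SE, limma adjusted p = 0.00449). The call held when any 1 array was left out (adjusted p = 0.00407 to 0.0147). Probe set 1367864_at read -0.11, -0.57, -0.23, -0.47 and -0.29 in Old and 0.11, 0.20, 0.30, 0.25 and 0.14 in Young, without overlap (-0.53 ± 0.08 SE, adjusted p = 0.00254). Probe set 1386961_at read -0.27, -0.81, -0.13, -0.28 and -0.16 in Old and 0.29, 0.13, 0.47, 0.26 and 0.61 in Young, also without overlap (-0.69 ± 0.12 SE, adjusted p = 0.00573). Probe set 1384632_at read -0.01, 0.01, -0.22, 0.19 and -0.08 in Old and -0.14, 0.06, 0.21, -0.12 and 0.28 in Young. In it the ages overlapped (-0.08 ± 0.09 SE, adjusted p = 0.700), and Old replicate 3, lowest in the other probe sets, was in the middle.

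**Figure D2:**
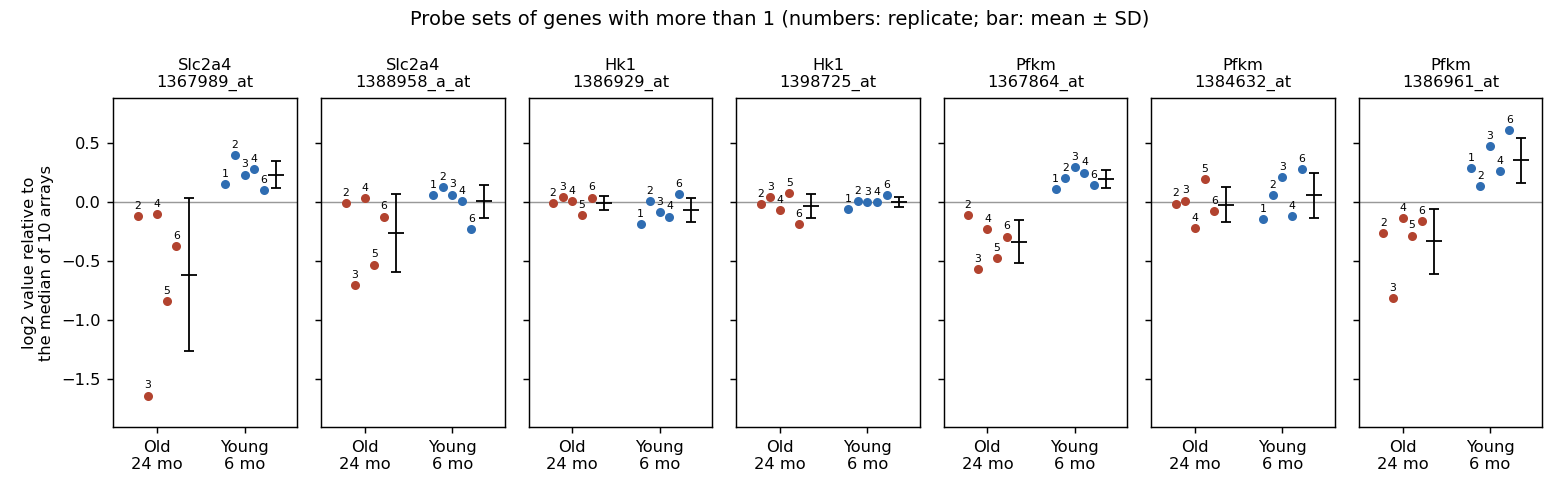
Values of each probe set of Slc2a4, Hk1 and Pfkm, the genes with more than 1, on each array (log2 relative to the median of 10 arrays), with Old left and Young right. Numbers are replicate numbers and bars are mean ± SD (n = 5). Old and Young separate in 1367989_at, 1367864_at and 1386961_at and overlap in the other 4.

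Pfkp read 0.02, 0.30, 0.00, -0.09 and 0.49 on the Old arrays and -0.14, -0.10, -0.26, 0.02 and 0.00 on the Young arrays. Old replicates 3 and 6 were above all Young arrays and the other 3 lay among them or near them. These are also the 2 arrays with the highest lymphocyte marker scores, which came mostly from Gzma, Prf1 and Nkg7. They had the 2 highest scores of 5 erythroid markers as well (0.22 and 0.91, against -0.40 to 0.19 on the other arrays). The part of either set of markers in the values of Pfkp was not tested. The difference was 0.24 ± 0.10 SE (95% interval 0.02 to 0.46) and did not pass (limma adjusted p = 0.162). It was 0.15 without Old replicate 6 (0.324) and 0.07 without both Old replicates 3 and 6 (0.609). Pfkl read 0.00, 0.27, -0.02, -0.25 and 0.17 in Old and 0.00, 0.14, -0.20, 0.08 and -0.12 in Young. Old replicate 3 was highest and Old replicate 5 lowest, on either side of the Young values (0.05 ± 0.10 SE, 95% interval -0.15 to 0.26, adjusted p = 0.769), and the sign turned without Old replicate 3.

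Within arrays, Pfkm moved against both other subunit genes. The difference Pfkm minus Pfkp was -0.15, -0.76, -0.20, -0.09 and -0.67 on the Old arrays and 0.22, 0.23, 0.58, 0.11 and 0.35 on the Young arrays. Every Old value was negative and every Young value positive. The shift of -0.67 log2, a Pfkm to Pfkp ratio 0.628 times that of Young, had a 95% interval of -1.11 to -0.31 (exact permutation p = 0.00794, adjusted p = 0.0238). It held when any 1 array was left out (-0.74 to -0.57, adjusted p = 0.0159 to 0.0476), and was -0.44 without Old replicates 3 and 6 (0.0357). The difference Pfkm minus Pfkl was -0.12, -0.73, -0.18, 0.07 and -0.35 in Old and 0.08, 0.00, 0.53, 0.05 and 0.47 in Young. Old replicate 5 lay among the Young values. The shift was -0.49 (95% interval -0.88 to -0.08, exact permutation p = 0.0238, adjusted p = 0.0476) and did not pass without Old replicate 2, 3, 4 or 6 or Young replicate 1, 3 or 6 (adjusted p = 0.0595 to 0.111). The difference Pfkl minus Pfkp shifted by -0.18 and did not pass (95% interval -0.38 to 0.01, exact permutation p = 0.0794, adjusted p = 0.0952). Without Young replicate 6 it passed (-0.23, adjusted p = 0.0238).

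**Figure D3:**
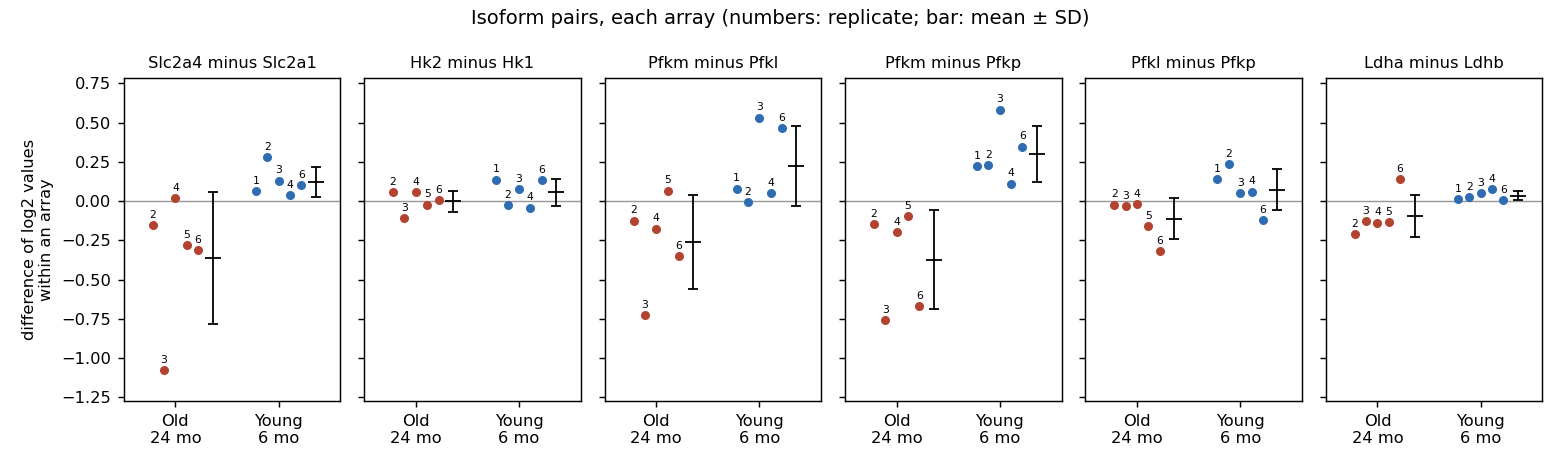
Differences of log2 values within each array (vertical axis) for the 6 pairs of genes, with Old left and Young right. Numbers are replicate numbers and bars are mean ± SD (n = 5). Old and Young do not overlap in Slc2a4 minus Slc2a1 and in Pfkm minus Pfkp.

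The lactate dehydrogenase genes encode the muscle-type (Ldha) and heart-type (Ldhb) subunits of the enzyme. Ldha read -0.20, -0.23, -0.10, -0.19 and 0.11 on the Old arrays and 0.01, -0.01, 0.12, 0.11 and 0.01 on the Young arrays. Old replicates 2 to 5 were below all Young arrays, whereas Old replicate 6 lay near the top of the Young range. The difference was -0.17 ± 0.07 SE, or -11.3%, and did not pass (limma adjusted p = 0.115). Without Old replicate 6 it was -0.23 and passed (0.0212). Ldhb read 0.01, -0.11, 0.03, -0.05 and -0.03 in Old and 0.00, -0.04, 0.07, 0.04 and 0.00 in Young. These values overlapped (-0.04 ± 0.04 SE, 95% interval -0.14 to 0.05, adjusted p = 0.597). The difference Ldha minus Ldhb was -0.21, -0.13, -0.14, -0.13 and 0.14 in Old and 0.01, 0.03, 0.05, 0.08 and 0.01 in Young, so Old replicate 6 alone lay above the Young values. The shift of -0.13 did not pass after adjustment (95% interval -0.23 to 0.00, exact permutation p = 0.0476, adjusted p = 0.0714), and without Old replicate 6 it was -0.19 and passed (0.0159).

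Of 12 measured genes of the other glycolytic steps, 1 rose, 0 fell and 11 did not pass by limma, with 9 means lower in Old and a median change of -0.09, against -0.0050 for all genes. Among all genes 11.9% were called, so 1 of 12 is near the general share. The gene that rose was Eno2, the enolase best known from neurons and neuroendocrine cells. It read 0.24, 0.12, 0.40, 0.27 and 0.41 on the Old arrays and -0.29, -0.20, -0.26, -0.12 and -0.15 on the Young arrays. All Old values were above all Young values, a level 1.41 times that of Young (0.49 ± 0.06 SE, limma adjusted p = 0.00119), and the call held in every setting tried (adjusted p up to 0.00780). Scores of 4 measured Schwann cell and neuron markers ran from -0.10 to 0.05 in Old and from -0.14 to 0.34 in Young. Of the muscle forms of the lower steps, singled out after their values were seen, the phosphoglycerate mutase gene Pgam2 gave -0.41 ± 0.15 SE (adjusted p = 0.0916) and the enolase gene Eno3 gave -0.34 ± 0.14 SE (0.141), both with their lowest value on Old replicate 3.

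**Figure D4:**
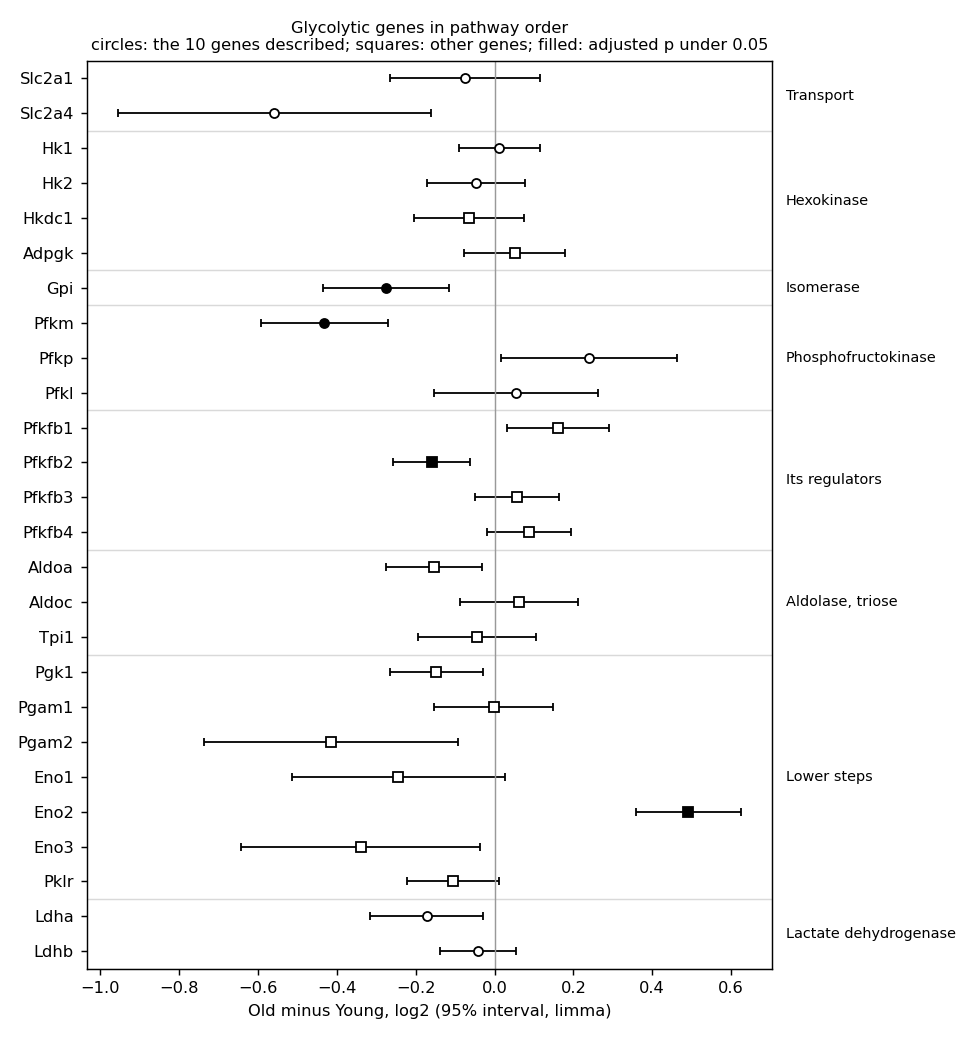
Differences of 26 genes in the order of the pathway, as Old minus Young in log2 (horizontal axis) with 95% intervals from limma. Circles are the 10 genes described, squares are other genes, and filled symbols passed the test: Gpi, Pfkm and Pfkfb2 lie left of 0 and Eno2 lies right of it.

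Among 6 measured genes of enzymes that set the activator of phosphofructokinase or oppose its step, 1 fell, 0 rose and 5 did not pass (median change 0.07), where 5.09% of all genes fell. Pfkfb2, which encodes the heart form of the bifunctional enzyme that makes and degrades that activator, gave -0.16 ± 0.05 SE (limma adjusted p = 0.0385). Its 4 probe sets ran from -0.43 to -0.05 with 0 of them past the test over probe sets, and the call was lost without Old replicate 3, 5 or 6 or any 1 Young array (adjusted p = 0.0561 to 0.0956). Taken as the median of its probe sets the change was -0.088 (0.217), and by the probe set of widest range -0.43 (0.100), neither of which passed. Pfkfb3, a related gene of the list, did not pass as a gene (0.06 ± 0.05 SE, limma adjusted p = 0.517). However, 1 of its probe sets rose by the test over probe sets (0.34 ± 0.09 SE, limma adjusted p = 0.0312). The other probe sets of Pfkfb3 gave -0.07 and -0.10 and did not pass (0.656 and 0.392). Of 9 other hexose transporter genes, 0 passed by limma and 1 had an unadjusted p under 0.05. The smallest p were those of Slc2a13, a proton and inositol symporter (0.14 ± 0.05 SE, adjusted p = 0.0797), and Slc2a8, an intracellular transporter (-0.14 ± 0.08 SE, 0.306).

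In the machinery that brings GLUT4 to the cell surface, 4 of 27 genes fell, 1 rose and 22 did not pass, with a median change of -0.07. Among all genes 11.9% were called, 5.09% lower and 6.77% higher in Old. Prkab1, a regulatory subunit of AMP-activated kinase, fell by 0.55 log2 (limma adjusted p = 0.00267). It read -0.07, -0.61, -0.40, -0.38 and -0.44 on the Old arrays and 0.15, 0.30, 0.07, 0.13 and 0.19 on the Young arrays, without overlap, and the call held when any 1 array was left out. The insulin-signal kinase gene Akt1 fell by 0.27 (adjusted p = 0.00535), with 2 of its 3 probe sets past the test, whereas Akt2, the form tied to glucose uptake in mouse and singled out after its value was seen, gave -0.07 ± 0.04 SE (0.276). Tbc1d4, the Akt target that holds GLUT4 vesicles back, gave -0.30 (0.0353, with 1 of its 2 probe sets past the test), and the vesicle fusion gene Stx4 gave -0.24 (0.0492). Rac1, a small GTPase of the actin skeleton, gave 0.26 (0.0317), with 1 of its 2 probe sets past the test, and 0.39 by the one of widest range (0.0232). The call for Tbc1d4 was lost without Old replicate 3, 4, 5 or 6 or Young replicate 2, 3, 4 or 6 (0.0502 to 0.0900). That for Stx4 was lost without Old replicate 3, 4 or 5 or Young replicate 1, 2, 4 or 6 (0.0612 to 0.103) and after centring each array on its median (0.0611), quantile normalization (0.0602) or array weights (0.0513). That for Rac1 was lost without Old replicate 3, 5 or 6 or Young replicate 2, 3, 4 or 6 (0.0512 to 0.0817).

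Of 17 transcriptional regulators linked to glucose genes, 2 fell, 1 rose and 14 did not pass (median change -0.04), beside the same 11.9% of all genes called. Mef2a, a muscle factor that acts on the Slc2a4 gene, gave -0.22 ± 0.06 SE (limma adjusted p = 0.0306), with 2 of its 4 probe sets past the test, and -0.37 by the one of widest range (0.0147). The thyroid hormone receptor gene Thra gave -0.15 ± 0.04 SE (0.0325), with 1 of its 3 probe sets past the test, and -0.29 by the one of widest range (0.00554). Vhl, which encodes the protein that marks hypoxia-inducible factors for degradation, gave 0.32 ± 0.08 SE (0.0231). The call for Mef2a was lost without Old replicate 3 or 5 or Young replicate 2 or 3 (0.0541 to 0.0813). That for Thra was lost without Old replicate 2, 5 or 6 or Young replicate 2, 3 or 6 (0.0519 to 0.0783), and that for Vhl without Old replicate 5 or 6 or Young replicate 2, 3 or 6 (0.0506 to 0.0636). Hif1a, also singled out after its value was seen, gave 0.12 ± 0.11 SE (0.526). In the transport and further metabolism of lactate and pyruvate, 1 of 8 genes fell, the D-lactate dehydrogenase gene Ldhd (-0.31 ± 0.08 SE, limma adjusted p = 0.0281), and 7 did not pass. Of its 2 probe sets, 0 passed the test over probe sets by limma (adjusted p = 0.106 and 0.0512), and both had an unadjusted p under 0.05. Its call was lost without Old replicate 4, 5 or 6 or Young replicate 2, 3 or 6 (0.0548 to 0.0684).

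As a description of likeness, the genes whose age-centred values over the 10 arrays followed each fallen gene most closely were found among all 14217. For Pfkm these were Slc17a1 (r = 0.960), Dipk2a (0.937) and Gnpat (0.930), of which Gnpat fell (-0.43 ± 0.09 SE, limma adjusted p = 0.00902). For Gpi they were A2ml1 (r = 0.940), Rbm38 (0.926) and C2cd2 (0.921), of which Rbm38 fell (-0.48 ± 0.10 SE, adjusted p = 0.0114). These values share the arrays and their normalization. They are the highest r of 14217 genes over only 10 arrays, and how high r would run by chance was not tested.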

How the data were processed

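Total RNA of heart was amplified over 2 cycles and biotin-labelled, per the labels' protocols, for 10 Rat Genome 230 2.0 arrays, named in the series text. The authors deposited 1 signed value per probe set and array, used as log2, with each probe set at a median of 0 (within 1e-06). No software or normalization for these values is given in the sources used here. The number of arrays limits the precision.

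Gene symbols came from the platform annotation, updated by gene identifier through RefSeq (GRCr8, names only): 20826 had 1 gene, 436 several and 9780 none listed, and 20758 matched. Gene values are means of probe sets. Old and Young were compared across all genes, and across all probe sets, with limma 3.58.1 (R 4.3.3), which was tested on simulated data. Isoform pairs were compared by exact permutation tests (Python 3.11.15, numpy 2.4.6). The members, the gene lists and the tests were chosen with earlier results of these data known. Of each other list, genes past the threshold were named (up to 6), or the 2 of smallest p where none passed, and for each member past it the 3 genes of highest age-centred r. Exceptions are marked in the text. Alternatives covered normalization, probe set summary, weights and left-out arrays. Listed genes such as Gapdh, Pkm and Tigar were not analysed here.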

Additional observations from a re-analysis of the deposited data

Results flagged for a closer look

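Among 46 groups of 5 values examined (the 10 genes, the single probe sets of genes with more than 1, and the 6 pairs, each in Old and in Young), 3 had a value whose gap to its nearest neighbour took more than 0.71 of the group's range; chance gives about 1 such value in 20 groups. Pfkm on Old replicate 3 read -0.46, against -0.19 to -0.13 on the other Old arrays. Its probe set 1386961_at on the same array read -0.81, against -0.28 to -0.13. The difference Ldha minus Ldhb on Old replicate 6 was 0.14, against -0.21 to -0.13. The first 2 share data, since the probe set is part of the gene value. Old replicates 3 and 6 were also the arrays of highest lymphocyte marker score (0.64 and 0.40), mostly through Gzma, Prf1 and Nkg7. The highest erythroid score (0.91) was on Old replicate 6, and the next highest (0.22) on Old replicate 3. The part of these markers in the values above was not tested.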

How the results depend on the processing

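Pfkm kept its direction and its call in all 19 alternatives (-0.69 to -0.37), and Hk2, Ldhb and Pfkp stayed uncalled with 1 direction in all 19. Counts of changed genes and probe sets ran from 988 to 1994 and from 1481 to 2943 with 1 array left out, against 1686 and 2492, and were 1012 and 1526 without Old replicates 3 and 6. Changed genes of the 10 ran from 1 to 3, and probe sets of the 14 from 2 to 4. With the replicate number as a block (8 arrays), 1069 genes, 1640 probe sets, 1 of the 10 genes and 2 of the 14 probe sets changed. Deviations of same-numbered arrays correlated by 0.03 to 0.15, and 2 of 4 numbers correlated best with their own. With only 4 numbers this cannot decide whether they mark pairs, and the main tests did not take them as pairs. In that paired form the shifts of Slc2a4 minus Slc2a1 (-0.52), Pfkm minus Pfkl (-0.61) and Pfkm minus Pfkp (-0.76) could not pass, since 4 pairs allow no p below 0.125. Pfkm minus Pfkl was -0.30 without Old replicates 3 and 6 (adjusted p = 0.188), and Ldha minus Ldhb was -0.20 (0.0357). With 1 array left out the shifts ran from -0.57 to -0.37 for Pfkm minus Pfkl, -0.23 to -0.13 for Pfkl minus Pfkp and -0.19 to -0.10 for Ldha minus Ldhb. By the probe set of widest range, Slc2a4 (-0.85, 0.0308) passed and its shift against Slc2a1 was -0.77. Slc2a4 also passed with quantile normalization (-0.49, 0.0412) or array weights (-0.49, 0.0484), and Ldha without Old replicates 3 and 6 (-0.21, 0.0446). Signs turned among uncalled values near 0. Slc2a1 gave 0.016 with the block and -0.12 to 0.0051 with 1 array left out. Hk1 gave -0.033 by its widest probe set, -1.0e-05 with array weights, -0.011 with the block and -0.011 to 0.036 with 1 array left out. Probe set 1398725_at gave -0.059 to 0.0046 with 1 array left out. Pfkl gave -0.071 without Old replicates 3 and 6, and -0.0047 to 0.13 with 1 array left out. The causes were not tested.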
